A study of Mus musculus with 7 samples.

Results

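Transcripts of 6 genes through which the oocyte signals to or is coupled with its follicle were followed in oocyte maturation with and without a ligand of RNA G-quadruplexes (rG4s), namely Gdf9, Bmp15, Bmp6, Fgf8, Kit and Gja4. They were chosen by name for their known roles, with no threshold on their values, and each is listed once, so they are 6 of the 25912 entries in the expression tables. Transcript levels had been measured by Smart-seq2, a full-length cDNA method, on 7 libraries of 10 pooled mouse oocytes each. Of these libraries, 2 came from fully grown oocytes at the germinal vesicle (GV) stage, for which the labels list no treatment, 3 came from oocytes cultured to metaphase II (MII) with the solvent DMSO, and 2 came from MII oocytes cultured with BYBX, a fluorescent small molecule that binds and stabilizes rG4s. The oocytes of all groups came from 4-week-old C57BL/6 females primed with PMSG, and the labels name no altered allele. The methods of the study add that GV controls had also received DMSO. The methods for these libraries do not name the dose of BYBX, nor is it stated which oocytes of a pool came from which female, so the p-values measure the spread between pools.

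The growing oocyte and its granulosa cells depend on each other. The oocyte secretes growth factors of the TGF-beta and FGF families, which drive granulosa cell proliferation, cumulus expansion and cumulus cell metabolism, while granulosa cells supply KIT ligand to the KIT receptor on the oocyte and pass small metabolites through gap junctions built from connexins. A fully grown oocyte no longer transcribes its genome, and when meiosis resumes many stored mRNAs are deadenylated and degraded while others gain poly(A) and are translated. The comparisons asked how the transcripts of this dialogue fared in the GV–MII transition, and whether BYBX left them at another level.

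Reverse transcription started from oligo-dT primers, so the 3′ ends of the transcripts matter for what was measured, and loss of an mRNA cannot be told apart from shortening of its poly(A) tail. In a pool, fewer oocytes with a transcript and less of it in each oocyte cannot be told apart either. One annotated transcript per gene (GENCODE vM21, GRCm38) was searched on its sense strand, over its last 100 bases, for the motifs that follow. The cytoplasmic polyadenylation element (CPE) recruits the machinery that lengthens tails in maturing oocytes. The polyadenylation signal (PAS) lies shortly before the site at which the nascent RNA is cleaved. The CPE was searched as TTTTAT and, in its longer form with a further A, as TTTTAAT. The PAS was searched as AATAAA and, in the common variant of that hexamer, as ATTAAA, and the longer CPE can run into a PAS. The windows of 30 bases below run 5′ to 3′ along the transcript and all lie in 3′-UTRs. They are shown because the 3′ ends matter for what was measured, and they hold every match found in the members. Capitals mark the motifs.
Gdf9, CPE and PAS, chr11:53437862-53437891, plus strand: gtggTTTTATgtgacggaagAATAAActgt
Bmp6, CPE, chr13:38500212-38500241, plus strand: atttattgtctaTTTTATatccattttgct
Bmp15, PAS, chrX:6314117-6314146, minus strand: ttaatcttaaagAATAAAttttcatttatg
Kit, PAS, chr5:75656684-75656713, plus strand: ctgaagaattctAATAAAaatgtaaatata
Gja4, PAS, chr4:127311425-127311454, minus strand: ttatgatcctcaAATAAAcaggactccatc

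A CPE thus lay in the last 100 bases of 2 of the 6 transcripts, Gdf9 and Bmp6, and of 1724 of the 8252 tested genes with a 3′-UTR of at least 100 bases (20.9%). A PAS lay there in 4 of the 6 and in 82.1% of the 8252. Neither was found for Fgf8, whose annotated 3′-UTR (192 bases) is the shortest of the 6. Farther upstream in the 3′-UTR, Bmp15 and Kit each had 3 matches to the CPE. Which 3′ ends these oocytes use was not measured, and a match is only a stretch of letters.

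A predicted rG4 motif, meaning 4 runs of 3 or more G on the sense strand, separated by 1 to 7 bases of any kind, was found in the transcript of Bmp6 alone. It is shown because the ligand is directed at such structures. It lies in the 5′-UTR, 5 bases before the start codon, and capitals mark the motif.
Bmp6, rG4 motif, chr13:38345900-38345929, plus strand: cGGGCCCCGCGGGGGCAGCCGGGCTGGGcg

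Of the 8727 tested genes matched to a transcript, 17.8% had such a motif anywhere in it, and the share was 19.9% among the 2168 transcripts within 20% of the length of the Bmp6 transcript. The other members had no match, although their transcripts may still fold into structures outside this definition.

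The values are FPKM, fragments normalized for the length of the transcript and the number mapped, which the authors had set relative to spiked-in ERCC RNA and, across batches, to GV oocytes. Total FPKM ranged from 109732 in an MII library with DMSO to 489569 in a GV library, so every difference between groups rests on that scaling, and the read depth is unknown. Markers placed the libraries as oocytes. Each of 12 oocyte markers was over 1 FPKM in at least 1 library, and Figla, a transcription factor gene of the oocyte, was under 1 FPKM in the MII libraries with DMSO. The markers had sums of 11662 to 14523 FPKM in GV, 1928 to 2864 in MII with DMSO and 6071 to 7044 in MII with BYBX. The 18 granulosa and cumulus markers summed to 11.4 to 21.7 FPKM in GV, 2.62 to 3.50 in MII with DMSO and 4.33 to 5.79 in MII with BYBX. Of them, 6 passed 1 FPKM in any library and Ptx3, a gene of the expanding cumulus, was at 0 throughout. The highest were Inha, which encodes the inhibin alpha subunit, at 5.48 FPKM, and Cyp19a1, the aromatase gene, at 4.49 FPKM, both in GV replicate 1. Theca, erythrocyte and leukocyte markers summed to at most 1.06, 1.20 and 1.73 FPKM. The granulosa sums moved with the groups as the members did, and their part in the results was not tested. These sums were smaller than the GV level of each member other than Bmp6.

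On the scale of the deposited values all 6 transcripts fell in the GV–MII transition with DMSO, and by very different amounts. Gja4 and Fgf8 dropped to 1.18% and 1.41% of their mean GV level, Bmp6 and Bmp15 to 15.7% and 21.4% of it, and Gdf9 and Kit kept 39.3% and 39.7%. BYBX-treated MII oocytes lay between the other groups for every member, at 19.0% of the GV level for Gja4, 23.0% for Fgf8, 34.8% for Bmp6, 46.0% for Bmp15, 61.2% for Gdf9 and 64.1% for Kit. The paper reports that fewer oocytes emitted a polar body with BYBX and that spindles were abnormal. Whether the MII groups were matched in meiotic progress was not tested.

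**Figure D1:**
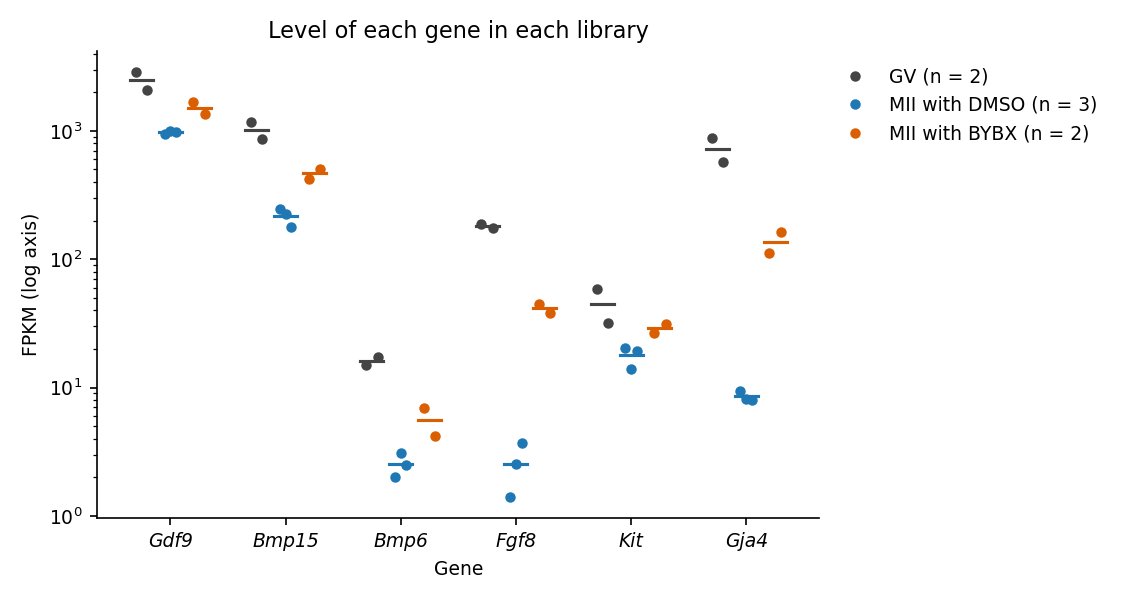
FPKM of the 6 genes on a log axis in 2 GV libraries, 3 MII libraries with DMSO and 2 MII libraries with BYBX; points are libraries and bars are group means. For every gene the BYBX-treated libraries sit between the others, and the distance from GV to MII with DMSO is widest for Gja4 and Fgf8.

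The limma fit took log2(FPKM + 1) of 9202 entries, those whose group means averaged 1 FPKM or more, and all 6 members passed that filter. In MII oocytes with DMSO all 6 were lower than in GV, with calls made where the Benjamini-Hochberg adjusted p was under 0.05. The fall was general, since 88.3% of tested entries were lower and 0.272% higher, so the count of members is close to the background. With BYBX against DMSO 5 of 6 members were higher and none lower, beside 65.2% of tested entries higher and 0.0326% lower. Against GV, 5 of 6 were lower with BYBX and none higher, beside 69.2% lower and 0.315% higher. The libraries of the groups did not overlap for any member in any comparison, which was also so for 92.5%, 79.0% and 82.3% of tested entries in the same directions and order. The comparisons share libraries and are not independent.

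**Figure D2:**
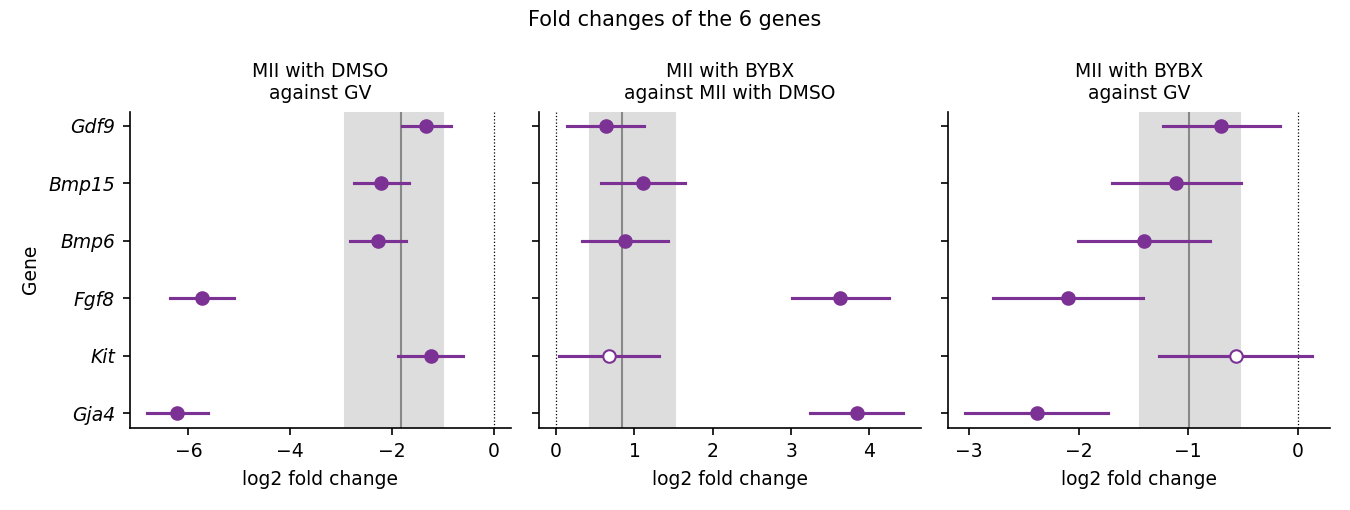
Log2 fold changes of the 6 genes from limma with 95% confidence intervals in 3 comparisons; filled points passed an adjusted p under 0.05, the grey line is the median of the 9202 tested entries and the grey band spans their quartiles. Gja4 and Fgf8 stand outside the band in each panel, and the 2 open points are those of Kit.

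Gdf9 (GRCm38 chromosome 11, 53431023 to 53437904, plus strand), which encodes the secreted factor needed for follicles to grow past the primary stage, was the most abundant member in each group. It had 2875 and 2080 FPKM in GV oocytes, 947, 1003 and 972 FPKM in MII oocytes with DMSO, and 1686 and 1348 FPKM in BYBX-treated MII oocytes. The DMSO libraries differed by at most 1.06-fold and lay below both other groups. On the log2 scale Gdf9 fell by 1.33 from GV to MII with DMSO (standard error 0.23, limma adjusted p = 7.8e-05), less than the median fall of 1.83 over tested entries. It was higher by 0.63 with BYBX than with DMSO (standard error 0.23, limma adjusted p = 0.025). This call did not hold without any one of the DMSO replicates 1, 2 and 3 (adjusted p of 0.051, 0.072 and 0.069). Without BYBX replicate 1, which left 1 library in that group, the difference was 0.47. Against GV it was lower with BYBX by a log2 difference of -0.70 (limma adjusted p = 0.022). The difference was -0.46 without GV replicate 1 and -0.54 without BYBX replicate 2, each omission leaving 1 library in its group. Among the tested entries Gdf9 ranked 8th to 14th in every library, and so it stayed among the most abundant polyadenylated transcripts throughout.

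Bmp15 (chromosome X, 6314107 to 6320721, minus strand) encodes the partner of GDF9 in signalling to granulosa and cumulus cells. Its levels were 1168 and 863 FPKM in GV, 246, 225 and 180 FPKM in MII with DMSO, and 425 and 508 FPKM in MII with BYBX. The 3 groups were separate, and every BYBX-treated library had less than both GV libraries and more than each DMSO library. The log2 fold change was -2.22 from GV to MII with DMSO (standard error 0.25, limma adjusted p = 1.4e-06). It was 1.11 for BYBX against DMSO (limma adjusted p = 0.0016), near the median of 0.84 over tested entries, and -1.11 for BYBX against GV (limma adjusted p = 0.0029). Bmp15 ranked between 45th and 89th in all libraries.

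Bmp6 (chromosome 13, 38345107 to 38500302, plus strand), a bone morphogenetic protein made by both oocytes and granulosa cells, was the least abundant member in GV and in BYBX-treated MII oocytes. It was at 14.9 and 17.2 FPKM in GV, 2.0, 3.07 and 2.48 FPKM in MII with DMSO, and 6.97 and 4.20 FPKM in MII with BYBX. The groups did not overlap, but the BYBX-treated libraries differed 1.66-fold from each other. The log2 fold changes were -2.28 for DMSO against GV (standard error 0.25, limma adjusted p = 1.2e-06), 0.88 for BYBX against DMSO (adjusted p = 0.008) and -1.40 for BYBX against GV (adjusted p = 0.00069). Without BYBX replicate 1, which left 1 library in that group, the difference between the MII groups was 0.58. Its rise with BYBX thus sat at the median of the tested entries, and 47.5% of them rose more.

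Fgf8 (chromosome 19, 45736798 to 45742915, minus strand), which encodes the oocyte-derived FGF that acts with BMP15 on glycolysis in cumulus cells, showed a much wider swing. Its levels were 187 and 174 FPKM in GV, 1.41, 2.54 and 3.69 FPKM in MII with DMSO, and 45.1 and 38.1 FPKM in BYBX-treated MII oocytes. Both BYBX-treated libraries lay far above each DMSO library and far below each GV library. Mean FPKM was 70.9-fold lower in MII with DMSO than it had been in GV and 16.3-fold higher with BYBX than with DMSO. On the log2(FPKM + 1) scale the changes were -5.73 (standard error 0.29, limma adjusted p = 7.3e-10) and 3.63 (standard error 0.29, limma adjusted p = 2.5e-07), and with BYBX Fgf8 was still lower than in GV by a log2 difference of -2.10 (limma adjusted p = 0.00012). On that scale 142 of the 9202 tested entries (1.54%) had a lower log2 fold change in the GV–MII transition, and 2.15% had a higher one with BYBX against DMSO. The added 1 compresses the changes of entries at low levels, so these shares depend in part on abundance. In rank, Fgf8 was at 438 and 385 in GV, between 3301 and 4850 in MII with DMSO, and at 990 and 960 with BYBX.

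Kit (chromosome 5, 75574916 to 75656722, plus strand) encodes the receptor tyrosine kinase through which KIT ligand reaches the oocyte. It was at 58.5 and 31.8 FPKM in GV, 20.3, 14.0 and 19.4 FPKM in MII with DMSO, and 26.8 and 31.1 FPKM in MII with BYBX. The GV libraries differed 1.84-fold, and the upper BYBX-treated library came within 1 FPKM of the lower GV library. Kit fell by 1.24 on the log2 scale from GV to MII with DMSO (standard error 0.30, limma adjusted p = 0.0014). It was the one member whose rise with BYBX did not pass the threshold, at 0.68 (95% confidence interval 0.04 to 1.32, limma adjusted p = 0.059). That rise did pass without DMSO replicate 1 (0.77, limma adjusted p = 0.038), but not without DMSO replicates 2 or 3 (adjusted p of 0.19 and 0.073). The difference between BYBX-treated MII and GV was -0.56 (95% confidence interval -1.26 to 0.14, limma adjusted p = 0.13). With 1 GV library left, it was -0.13 without GV replicate 1 and -0.99 without GV replicate 2, the lower of the pair.

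Gja4 (chromosome 4, 127311421 to 127314039, minus strand), which encodes the connexin on the oocyte side of the gap junctions with granulosa cells, had the largest changes from GV among the members, and rose with BYBX by about as much as Fgf8. It had 875 and 571 FPKM in GV, 9.36, 8.18 and 8.03 FPKM in MII with DMSO, and 112 and 162 FPKM in BYBX-treated MII oocytes. All DMSO libraries lay far below every other library, and the groups were separate. Mean FPKM was 84.8-fold lower in MII with DMSO than it had been in GV, 16.1-fold higher with BYBX than with DMSO, and, in BYBX-treated MII oocytes, 5.27-fold lower than in GV. The log2 fold changes were -6.22 (standard error 0.28, limma adjusted p = 3.8e-10), 3.84 (standard error 0.28, adjusted p = 1.2e-07) and -2.38 (standard error 0.30, adjusted p = 6.9e-05), in the same order. On the log2(FPKM + 1) scale 72 entries (0.782%) had a lower log2 fold change in MII with DMSO against GV, 1.61% had a higher one with BYBX against DMSO, and 52 had a lower one with BYBX against GV. These shares too depend in part on abundance, since the added 1 compresses the changes of low entries. Its rank went from 69 and 90 in GV to 1661 to 2060 in MII with DMSO, and it was at 341 and 162 with BYBX.

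The order of the members by level therefore differed between groups. In GV oocytes it was Gdf9, Bmp15, Gja4, Fgf8, Kit and Bmp6, where only Bmp15 and Gja4 overlapped in their libraries. In MII oocytes with DMSO Kit moved ahead of Gja4 and Fgf8, and Fgf8 and Bmp6 overlapped at means of 2.55 and 2.52 FPKM. In BYBX-treated MII oocytes the order of GV was found again, with no overlap between neighbours.

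Because the groups differ in total FPKM, the directions were read again on other scales. With every library set to the same total FPKM or centred on its median, Gja4 and Fgf8 were still called lower in either MII group than in GV, and higher in BYBX-treated than in DMSO-treated MII oocytes. After median centring the changes were -3.92, 2.56 and -1.36 for Gja4 and -3.42, 2.35 and -1.07 for Fgf8. The others depended on the scale. At the same total FPKM Gdf9 was higher in MII with DMSO than in GV by 0.56 (limma adjusted p = 0.0083), and after median centring it was higher by 0.98 (adjusted p = 0.00029) and lower with BYBX than with DMSO by a difference of -0.65 (adjusted p = 0.0058). Kit was higher in MII with DMSO by 1.06 after median centring (adjusted p = 0.0032), while Bmp15 and Bmp6 had values of 0.09 and 0.02 there. These scales moved the median change of all tested entries from -1.83 to -0.56 and 0.47.

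Ratios between genes of the same library do not depend on its scaling, and Gdf9 was taken as the reference. Gdf9 itself changed, with log2 fold changes of -1.33 from GV to MII with DMSO and 0.63 with BYBX against DMSO. Its direction depended on the scale, as given above. From GV to MII with DMSO 65.4% of tested entries had a lower log2 fold change than Gdf9. With BYBX against DMSO 62.5% had a higher one. A ratio to Gdf9 that falls in maturation or rises with BYBX is therefore not particular to the members. Gja4 was at 30.4% and 27.5% of the Gdf9 level in GV, at 0.988%, 0.816% and 0.826% in MII with DMSO, and at 6.65% and 12.0% with BYBX. Fgf8 was at 6.52% and 8.35% of Gdf9 in GV, at 0.149%, 0.254% and 0.379% in MII with DMSO, and at 2.67% and 2.82% with BYBX. For both genes all 3 groups were separate.

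Bmp15 was at 40.6% and 41.5% of Gdf9 in GV and at 18.5% to 26.0% in MII with DMSO, and its BYBX values of 25.2% and 37.7% overlapped the latter. Bmp6 stayed under 1% of Gdf9 everywhere, at 0.519% and 0.825% in GV, 0.212% to 0.306% in MII with DMSO, and 0.414% and 0.312% with BYBX. Its 3 groups were separate too, with a narrow gap between the MII groups. Kit was at 1.40% to 2.30% of Gdf9 with overlap between all groups.

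Exact two-sided permutation tests over libraries gave p = 0.1 for the log2 ratio of Gja4, Fgf8, Bmp15 and Bmp6 to Gdf9 in MII with DMSO against GV, and p = 0.1 for Gja4 and Fgf8 with BYBX against DMSO. This is the smallest p that 2 against 3 libraries allow, 0.33 is the smallest for 2 against 2, and no such test could pass 0.05. The log2 ratio of Gja4 changed by -5.05 from GV to MII with DMSO and by 3.36 with BYBX, and that of Fgf8 by -4.92 and 3.50. For Kit the difference was 0.04 (exact permutation p = 0.9) from GV to MII with DMSO and 0.08 (exact permutation p = 0.9) with BYBX. Of the 15 ratio comparisons 11 had no overlap between the groups, and adjusted p ran from 0.25 to 0.9. How often the ratios of other entries to Gdf9 separate was not counted.

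**Figure D3:**
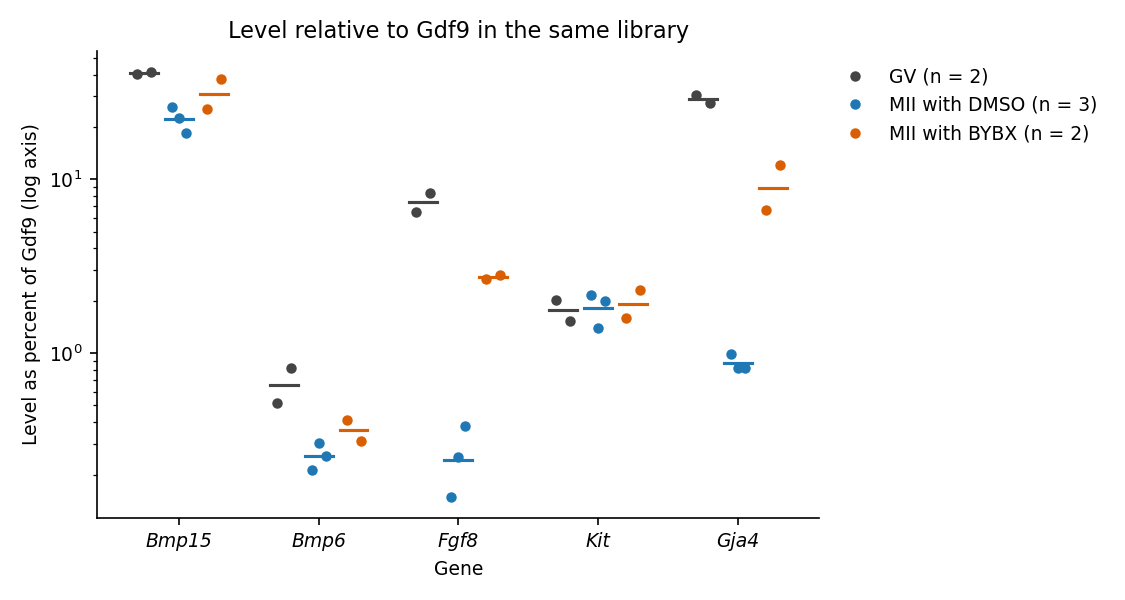
Level of 5 genes as a percent of Gdf9 in the same library on a log axis; points are libraries and bars are geometric means of the groups. Gja4 and Fgf8 fall far below their GV ratio in MII with DMSO and lie in between with BYBX, whereas the groups of Kit overlap.

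The transcripts whose pattern over the 7 libraries was nearest to each member were found by the root mean square difference of centred log2(FPKM + 1) among 9122 candidates. For Gja4 they were Tubb4b, which encodes a beta-tubulin (0.117), Irf1, an interferon regulatory factor gene (0.141), and Cpsf4l (0.152). Irf1 averaged 109 FPKM in GV and 0.229 FPKM in MII with DMSO, where the added 1 compresses its fall. Tubb4b had mean levels of 297 FPKM in GV, 3.50 FPKM in MII with DMSO and 62.0 FPKM with BYBX. For Fgf8 they were Mrpl14, a mitochondrial ribosomal protein gene (0.128), Dynlrb1, which encodes a dynein light chain (0.150), and Commd1 (0.174). Gja4 and Fgf8 differed from each other by 0.446, with 127 candidates nearer to Gja4 than Fgf8 was and 279 nearer to Fgf8 than Gja4 was.

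Gdf9 had as neighbours Fam228b (0.038), the kinesin light chain gene Klc4 (0.047) and Creb3l4 (0.056), of which Fam228b and Klc4 averaged below 5 FPKM, where the added 1 compresses differences. Creb3l4 had means of 134, 51.0 and 80.9 FPKM in GV, MII with DMSO and MII with BYBX. Those of Bmp15 were Zdhhc6, Capza1 and Caprin1 (0.096 to 0.098), and those of Bmp6 were Srsf1, Spag7 and Set (0.082 to 0.10). Srsf1 averaged 0.721 FPKM in MII with DMSO, where the added 1 compresses differences too. Those of Kit were Atg16l1, Ccnd3 and Tubg1 (0.086 to 0.10). Gdf9 and Kit were the closest pair of members, at 0.249. Even so, 1491 candidates were nearer to Gdf9 than Kit was, and 594 were nearer to Kit than Gdf9 was.

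Across 10 lists of genes from the same pathways, chosen for their function, there were 99 genes other than the members, of which 54 passed the filter. From GV to MII with DMSO, 43 of these 54 fell and none rose, beside 88.3% of all tested entries lower. Their median log2 fold change was -0.88 beside -1.83 over all tested entries. With BYBX against DMSO 20 were higher and none lower, beside 65.2% higher, with a median of 0.45 beside 0.84. With BYBX against GV 26 were lower and none higher, beside 69.2% lower, with a median of -0.52 beside -0.99. The counts per list that follow are to be read beside the same shares. These directions rest on the deposited scale, since at the same total FPKM 11 of the 54 were lower and 20 higher in MII with DMSO against GV, 6 higher and 5 lower with BYBX against DMSO, and 3 lower and 6 higher with BYBX against GV. After median centring 3 were lower and 44 higher, then none higher and 39 lower, then 3 lower and 18 higher. In the deposited FPKM none of the 54 had as large a fold change of its means as Gja4 or Fgf8 in MII with DMSO against GV or with BYBX against DMSO. Against GV, Inha was lower with BYBX at 4.56% of its GV mean of 3.71 FPKM, a larger fold than those of Gja4 and Fgf8.

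**Figure D4:**
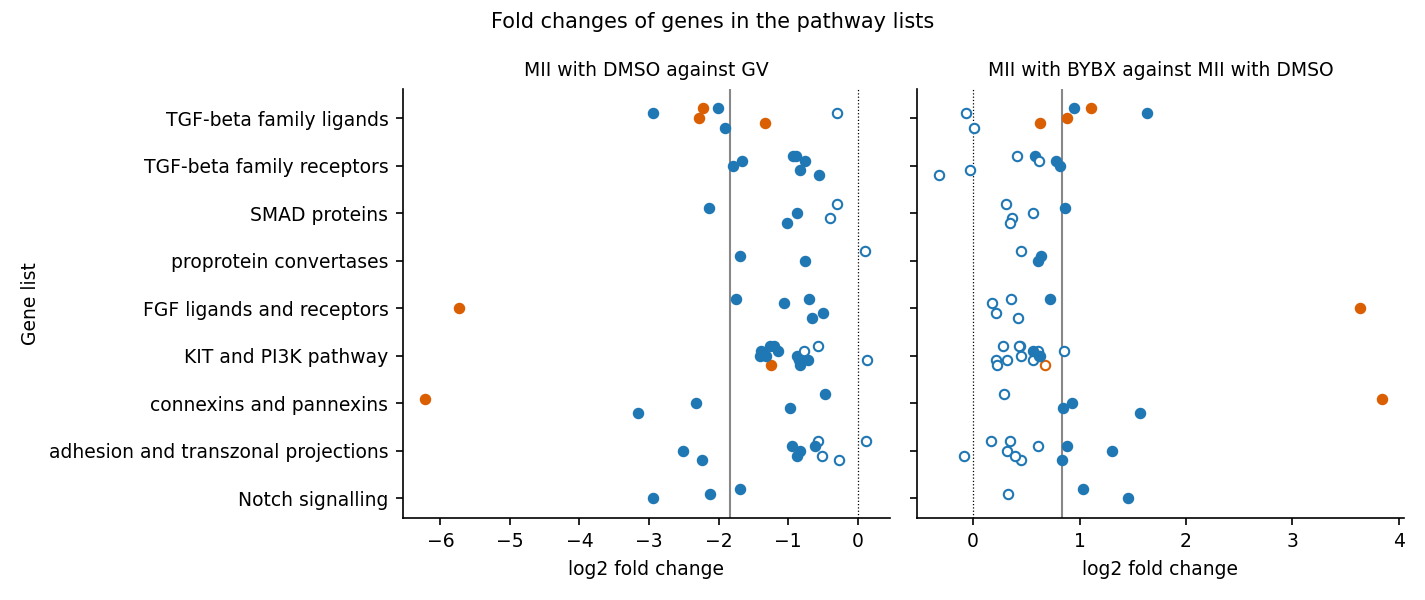
Log2 fold changes of the genes in the pathway lists that passed the filter, for MII with DMSO against GV and for MII with BYBX against MII with DMSO; orange points are the 6 members, blue points are other genes, filled points passed an adjusted p under 0.05 and the grey line is the median of all tested entries. Fgf8 and Gja4 lie far from the other genes of their lists in both panels.

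Of other TGF-beta family ligands 4 passed the filter and 3 of these fell in MII with DMSO, Inha of the granulosa markers among them, and 2 rose with BYBX against DMSO. Tgfb2, the most abundant of them in GV, went from 55.5 ± 5.93 FPKM (SD, n = 2) in GV to 13.1 ± 0.71 (SD, n = 3) with DMSO and 26.1 ± 1.93 (SD, n = 2) with BYBX, whereas Bmp5 had 27.9, 21.9 and 20.8 FPKM and passed no test. All 7 receptors that passed the filter fell and 3 were higher with BYBX than with DMSO. Bmpr1b, a type I receptor, was at 25.1 FPKM in GV, 13.6 FPKM with DMSO and 13.4 FPKM with BYBX, and Tgfbr3, the coreceptor betaglycan, at 16.8, 4.32 and 7.15 FPKM. Both were lower than GV in each MII group, and neither differed between the MII groups at the threshold (limma adjusted p = 0.92 and 0.074).

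Of 5 SMAD genes, the transducers of these receptors, 3 fell and 1 was higher with BYBX. That one was Smad2 (11.4, 1.81 and 4.10 FPKM in GV, MII with DMSO and MII with BYBX), while Smad3 fell from 34.0 to 18.4 FPKM and its 28.6 FPKM with BYBX did not pass the test against either group. None of 7 extracellular antagonists passed the filter, with Fstl3 at 0.869 FPKM and Bambi at 0.447 FPKM in GV. Of the 3 convertases, proteases that cleave growth factor precursors, Pcsk6 fell from 4.18 to 0.580 FPKM and was higher with BYBX at 1.51 FPKM, and Furin had 12.2, 13.4 and 20.6 FPKM and passed no test.

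All 5 other FGF ligands and receptors that passed the filter, of 9 listed, fell and 1 was higher with BYBX, but by less than Fgf8. Fgf1 had 5.26 FPKM in GV, 0.778 FPKM with DMSO and 1.93 FPKM with BYBX. The receptor gene Fgfr2 went from 11.4 to 6.57 FPKM in MII with DMSO and had 8.68 FPKM with BYBX, which did not pass the test against either group. In the KIT and PI3K pathway 10 of 13 fell and 3 were higher with BYBX, though the most abundant genes, the kinase genes Akt1 (26.4, 17.9 and 21.6 FPKM) and Pdpk1 (18.1, 9.87 and 15.1 FPKM), passed no test.

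All 4 other connexins and pannexins that passed the filter, of 11 listed, fell and 3 were higher with BYBX than with DMSO, at levels far under Gja4. Panx1, a channel of the plasma membrane, had 12.7 FPKM in GV, 0.540 FPKM with DMSO and 3.55 FPKM with BYBX, and its log2 fold changes of -3.16 and 1.57 were the widest among the list's other genes. Gjb1 had 5.36, 0.259 and 1.40 FPKM. Of 10 adhesion and transzonal projection genes 6 fell and 3 were higher with BYBX. Ctnnb1, which encodes beta-catenin, had 109, 76.2 and 72.1 FPKM and passed no test, while Ctnna1 fell from 50.4 to 26.6 FPKM and had 33.3 FPKM with BYBX.

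All 3 Notch pathway genes that passed the filter fell. The ligand gene Jag1 went from 137 ± 12.3 FPKM (SD, n = 2) in GV to 30.4 ± 0.58 (SD, n = 3) with DMSO, and was at 38.4 ± 1.82 (SD, n = 2) with BYBX, a log2 difference of 0.33 from DMSO that did not pass (limma adjusted p = 0.23). Jag2 went from 26.7 FPKM to 2.58 FPKM and was higher with BYBX at 8.81 FPKM (log2 fold change 1.45, limma adjusted p = 0.00015).

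Read beside the 3′ ends, the 1724 tested genes with a CPE in their last 100 bases had a median log2 fold change of -1.24 from GV to MII with DMSO and the 6528 without one had -1.95. With BYBX against DMSO the medians were 0.58 and 0.89. Of the members, Gdf9 (CPE) lay near the first median of each comparison, and Gja4 and Fgf8 (no CPE in their 3′-UTR) lay far beyond the second. However, Bmp6 (CPE) fell more than either median. Of the members with CPEs farther upstream only, Kit lay at the first median, whereas Bmp15 fell more and rose more with BYBX than either median. With 6 genes, a relation between the element and the level was not tested.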

How the data were processed

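Smart-seq2 had been run on pools of 10 mouse oocytes, and the labels gave 3 groups, GV (2 libraries), MII with DMSO (3) and MII with BYBX (2). The submitters' processing notes name Trim Galore 0.6.7, HISAT2 2.2.1, Cufflinks 2.2.1 and the mm10 build. The authors deposited FPKM values, 1 per gene and library, already scaled to ERCC spike-in RNA and, across batches, to GV oocytes. The factors and batches are not given in the sources used here and no ERCC entries are listed, so every level rests on a scaling that could not be checked. Read depth is unknown, and precision is that of the 2 or 3 libraries. Of 25912 entries, 4 with a missing value were left out.

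The deposited FPKM values were analysed as log2(FPKM + 1), and fold changes on this scale understate those of low genes. limma 3.58.1 in R 4.3.3 (lmFit, eBayes with intensity trend) was fitted to 9202 entries, those whose 3 group means averaged 1 FPKM or more, with all 7 libraries in 1 model and 4 residual degrees of freedom. Benjamini-Hochberg adjustment ran over all 9202 entries, and the threshold was 0.05. This step was tested on simulated data. Ratios to Gdf9 were compared by exact two-sided permutation tests over libraries.

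The members and gene lists were chosen with earlier results of these data known. Named beside the members are, per list, the 2 other genes with the highest GV mean. The 2 highest granulosa markers and, per member, the 3 entries of nearest pattern are named too. Ptx3 and Figla fall outside this rule. Positions and transcripts are from GENCODE vM21 on GRCm38 (mm10), 1 protein-coding transcript per gene by APPRIS rank and length, which matched 8727 of the 9202 entries. The gene models behind the FPKM values may differ from it. The alternatives tried were another pseudocount (0.1), another filter (5 FPKM) or no filter, libraries set to the same total FPKM or centred on their median, fits without the third group, without the intensity trend or with a replicate block, a 2-fold minimum, and omission of each library. Python 3.11.15 with numpy 2.4.6, pandas 2.3.3, scipy 1.17.1 and matplotlib 3.10.9 was used for tables and plots.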

Additional observations from a re-analysis of the deposited data

How the results depend on the processing

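The scale of the libraries changed the results most. At the same total FPKM, 3 members were lower and 1 higher in MII with DMSO than in GV, 2 were higher in BYBX-treated than in DMSO-treated MII, and 2 were lower in BYBX-treated MII than in GV. Of all tested entries, 49.5% were lower and 23.3% higher, then 39.9% higher and 8.22% lower, then 13.3% lower and 5.30% higher. With median centring the counts were 2 lower and 2 higher, then 2 higher and 1 lower, then 2 lower, whereas all tested entries came to 26.7% lower and 48.8% higher, next to 43.9% lower and 18.4% higher, and last to 13.6% lower and 15.2% higher. From GV to MII with DMSO the log2 fold changes that turned were, at the same total FPKM, 0.56 for Gdf9 and 0.58 for Kit, and after median centring 0.98 for Gdf9, 0.087 for Bmp15, 0.019 for Bmp6 and 1.06 for Kit. For BYBX against DMSO they were -0.26 for Gdf9 and -0.18 for Kit at the same total FPKM, and -0.65 for Gdf9, -0.17 for Bmp15, -0.39 for Bmp6 and -0.60 for Kit after centring. For BYBX against GV they were 0.29 for Gdf9 and 0.40 for Kit at the same total, and 0.33 and 0.46 after centring. Gja4 and Fgf8 kept direction and call under all alternatives run, in all 3 comparisons.

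With a 2-fold minimum 3 members were higher with BYBX than with DMSO, beside 3875 of all 9202 entries. Without that minimum, omission of DMSO replicates 1, 2 and 3 in turn left 5, 4 and 4 members called higher with BYBX. Of all tested entries, 5578, 5378 and 5511 were so called. Against GV, 5 members were called lower with BYBX each time, beside 6392, 6172 and 6204 entries. With DMSO all 6 members fell each time, beside 7862, 7930 and 7924 entries. Omission of a GV or BYBX replicate left 1 library in that group, so only sizes are given here. Without BYBX replicate 1 the rise with BYBX was 0.47 for Gdf9 and 0.58 for Bmp6, beside 0.63 and 0.88 with all libraries. The labels say nothing of what a replicate number shares, and same-numbered libraries deviated together in GV and MII with DMSO (correlations of 0.49 and 0.28) but in opposite ways in the MII groups (-0.60 and -0.35), so the numbers were not taken as pairs. With a replicate block 6, 4 and 4 members were called in the 3 comparisons, beside 7777, 5266 and 5962 of 9202 entries in the same directions, Gdf9 losing its calls for BYBX against DMSO (limma adjusted p = 0.084) and for BYBX against GV (adjusted p = 0.052). Without a filter Gdf9 lost them too (adjusted p of 0.17 and 0.13), and with only BYBX-treated MII and GV fitted it lost the latter (adjusted p = 0.091). The rise of Kit with BYBX was called with a filter at 5 FPKM, without the intensity trend (adjusted p = 0.049) and with only the MII groups fitted (adjusted p = 0.036). A pseudocount of 0.1 changed no call of a member. The cause of these shifts was not tested.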
